A study of Rattus norvegicus with 4 samples.

Results

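ATP-binding cassette (ABC) transporters were represented on the rat liver array by 8 probes of 6 genes, out of 1936 probes and 958 genes with 1 symbol. The members were the probes whose gene symbol in the platform's annotation begins with Abca, Abcb, Abcc, Abcd or Abcg. These were Abcb6 and Abcb9 with 2 probes each, and Abcc1, Abcc2, Abcc4 and Abcd3 with 1 probe each. Among probes with 1 symbol, none carried an Abca or Abcg symbol, and probes with several symbols were not counted. The cholesterol and phospholipid exporters of those subfamilies were thus not analysed here, and neither was Abcb11, the bile salt export pump. Each of the 8 probes matched a RefSeq gene of the same symbol.

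The arrays compared liver RNA of male Sprague-Dawley rats of 250 to 300 g, 12 h after tying of the common bile duct, with liver RNA of rats given a sham operation that exposed the duct and left it open. Both groups were operated on under ether and then fed freely, and their age was not given. RNA from the right lateral lobe of 3 rats per group was mixed, so each group was a single kind of pool, and poly(A) RNA was labelled and hybridised to 4 two-colour cDNA slides that each carried both RNAs. Ligation RNA carried the dye Cy5 on arrays 1 and 3 and the dye Cy3 on arrays 2 and 4. Since the 4 arrays may repeat the same pair of pools, the p-values given here measure the spread between hybridisations and not between rats.

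ABC transporters use the hydrolysis of ATP to move substrates across membranes. In hepatocytes the multidrug resistance proteins of the ABCC subfamily export conjugates of glutathione, glucuronate and sulfate, Abcc2 (MRP2) at the canalicular membrane into bile, and Abcc1 (MRP1) and Abcc4 (MRP4) at the basolateral membrane toward blood. Half-transporters of the ABCB and ABCD subfamilies, which work as dimers, sit in organelles: Abcb6 moves porphyrins and has been placed in the outer mitochondrial membrane and in lysosomes, Abcb9 (TAPL) carries peptides into lysosomes, and Abcd3 (PMP70) carries acyl-CoAs and bile acid intermediates into peroxisomes. In lasting biliary obstruction in rodents, loss of canalicular Abcc2 and gain of basolateral Abcc4 protein are textbook findings, whereas the arrays measured RNA at a single early time.

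The promoter sequence is printed for Abcc2 and Abcc4, the members whose RNA ratio passed the test below. It covers the 250 bases before the transcript start, from RefSeq on build GRCr8, at chr1:252613625-252613874 on the plus strand for Abcc2 and at chr15:102181365-102181614 on the minus strand for Abcc4, each written 5′ to 3′ in the direction of the gene. Capitals mark matches on either strand to AGGTCA, the half-site that many nuclear receptors bind, to TGACNNNGC, the core of the antioxidant response element, or to CCAAT.

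Abcc2: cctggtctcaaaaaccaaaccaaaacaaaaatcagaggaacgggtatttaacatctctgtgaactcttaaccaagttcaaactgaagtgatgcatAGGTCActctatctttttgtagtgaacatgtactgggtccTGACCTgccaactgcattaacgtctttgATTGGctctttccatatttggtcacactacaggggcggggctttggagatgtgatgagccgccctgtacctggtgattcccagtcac
Abcc4: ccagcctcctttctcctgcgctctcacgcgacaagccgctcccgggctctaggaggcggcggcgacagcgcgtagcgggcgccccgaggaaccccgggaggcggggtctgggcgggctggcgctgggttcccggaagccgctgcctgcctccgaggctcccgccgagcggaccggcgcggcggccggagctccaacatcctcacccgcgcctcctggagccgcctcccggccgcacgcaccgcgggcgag

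The Abcc2 window held AGGTCA at -155 to -150 from the transcript start and, on the other strand, at -115 to -110. It also held CCAAT on the other strand at -87 to -83. The Abcc4 window held none of the 3 motifs. Of 33469 rat promoter windows of the same 250 bases, 14.1% held AGGTCA, 10.1% held TGACNNNGC and 34.0% held CCAAT. The windows also differed in base composition, with 45.2% G and C for Abcc2 and 77.6% for Abcc4. The Abcc4 start used by the table lies 1548 bases inside the gene's outer bound, so other starts of that gene were not covered. Of the other members, Abcb6 held AGGTCA and CCAAT once each, and Abcb9, Abcc1 and Abcd3 held none of the 3 motifs. The Abcb9 start lies 13493 bases inside the outer bound of its gene, so its other starts were not covered either.

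All values are log2 ratios of ligation over sham, each array centred on the median of its probes, so 0 means no difference from the typical probe and not an expression level. The direction is likely but not stated. It was taken from the order of the channels, since ligation RNA is labelled as channel 2 on all 4 arrays, and base 2 is assumed for the logarithm. If the table instead held Cy5 over Cy3 on every array, the ligation term and the dye term of each gene, defined next, would change places.

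For each gene, limma split the 4 ratios into a ligation term, the mean of both labelling directions, and a dye term, the part that changed sign when the dyes were exchanged. The limma SE and p-values rest mostly on a spread pooled over all features (10.4 prior degrees of freedom). The gene's own arrays weigh less (2 residual degrees of freedom). A gene was called when the Benjamini-Hochberg adjusted p of its ligation term over 1174 features was under 0.05. At that rule 2 of the 6 ABC genes were called, 1 higher and 1 lower, against a background of 28.6% of all features (12% higher and 16.6% lower). The share among ABC genes was thus near the background. Abcc2 was higher in the ligated pool by 1.23-fold, and Abcc4 was lower, also by 1.23-fold. The median of the 6 genes was -0.08, beside -0.01 (-0.013) over all features.

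**Figure D1:**
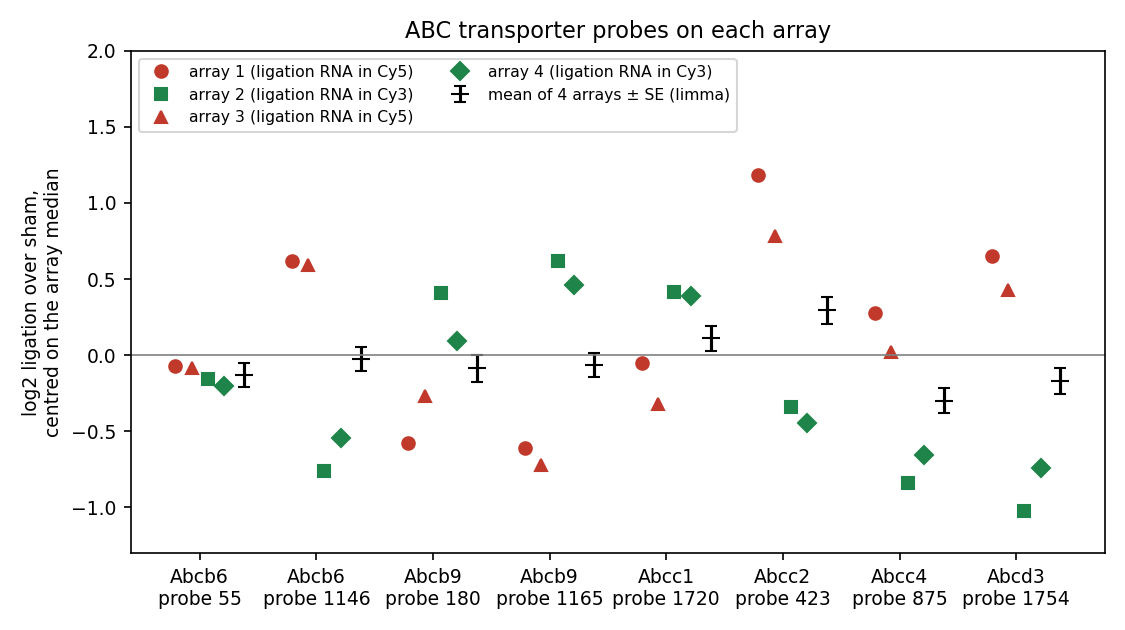
Centred log2 ligation over sham (vertical axis) of the 8 ABC probes on each of the 4 arrays, with ligation RNA in Cy5 in red and in Cy3 in green, and the limma mean ± SE in black. In every probe but Abcb6 probe 55 the red and green points lie on opposite sides of 0.

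Abcc2, the canalicular pump that puts bilirubin glucuronide and glutathione conjugates into bile, stood at 1.19 on array 1 and 0.78 on array 3. On the arrays with ligation RNA in Cy3 it stood at -0.34 on array 2 and -0.45 on array 4. The Cy5 arrays were thus high and the Cy3 arrays low, with no overlap between labelling directions. The ligation term was 0.30 ± 0.08 (SE, 4 arrays; 95% interval 0.12 to 0.47; limma adjusted p = 0.0168), a ratio of 1.08 to 1.39 within the interval. The dye term was 0.69, 2.33 times as large. Among named genes 80.0% had a smaller absolute ligation term.

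Abcc4, the basolateral pump that carries bile acids together with glutathione, and also cyclic nucleotides, stood at 0.28 on array 1 and 0.02 (0.0202) on array 3. It stood at -0.84 on array 2 and -0.66 on array 4. Here the Cy5 arrays lay at or above the array median and the Cy3 arrays well below it. The ligation term was -0.30 ± 0.08 (SE, 4 arrays; 95% interval -0.47 to -0.13; limma adjusted p = 0.0106). The interval spans a ratio of 0.723 to 0.914 relative to the array median. The dye term was 0.45 and so again the larger of the pair.

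Both calls rest on the setting in places. Abcc2 was at -0.09 and not called without centring, at 0.22 (adjusted p = 0.115) with each print block centred on its own median, at 0.19 (adjusted p = 0.0976) without array 1, and at 0.27 (adjusted p = 0.0753) without array 2. Abcc4 was at -0.25 (adjusted p = 0.0975) without array 2 and at -0.23 (adjusted p = 0.0692) without array 3. Without centring it was at -0.68 and called lower, but there 82.2% of all features were called lower too.

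Abcc1, which exports leukotriene C4 and glutathione conjugates across the basolateral membrane and is scarce in resting hepatocytes, stood at -0.05 on array 1, 0.42 on array 2, -0.32 on array 3 and 0.39 on array 4. Its labelling directions were reversed against those of Abcc2 and Abcc4, with the Cy3 arrays high and the Cy5 arrays low. The ligation term was 0.11 ± 0.08 and was not called (95% interval -0.05 to 0.28; limma adjusted p = 0.352). The interval contains 0 and reaches a ratio of 1.21.

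The 3 ABCC genes were also compared with each other on the same array, where the centring of the array cancels. Abcc2 minus Abcc4 was 0.91 on array 1, 0.50 on array 2, 0.76 on array 3 and 0.21 on array 4. Read as ligation over sham, Abcc2 thus had the higher ratio on 4 of 4 arrays, with a mean difference of 0.59 ± 0.31 (SD, n = 4 arrays). An exact two-sided sign-flip permutation test gave p = 0.125, which is the smallest p that 4 arrays allow, and 0.375 after adjustment over the 3 pairs. This comparison therefore could not pass 0.05. Read as Cy5 over Cy3, the differences on arrays 2 and 4 change sign, Abcc2 is the higher on 2 of 4 arrays, and the mean is 0.24 (exact permutation p = 0.5).

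The pairs with Abcc1 did not keep one sign in this reading. Abcc1 minus Abcc2 was -1.23 and -1.10 on the Cy5 arrays but 0.76 and 0.83 on the Cy3 arrays, with a mean of -0.18 (exact permutation p = 0.75). Abcc1 minus Abcc4 was -0.32 and -0.34 on the Cy5 arrays and 1.25 and 1.05 on the Cy3 arrays, with a mean of 0.41 (exact permutation p = 0.5). The adjusted p of both pairs was 0.75, and their spread between arrays exceeded their mean. Both, read as Cy5 over Cy3, would have 1 sign on all arrays, with means of -0.98 and -0.74 (exact permutation p = 0.125 each).

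**Figure D2:**
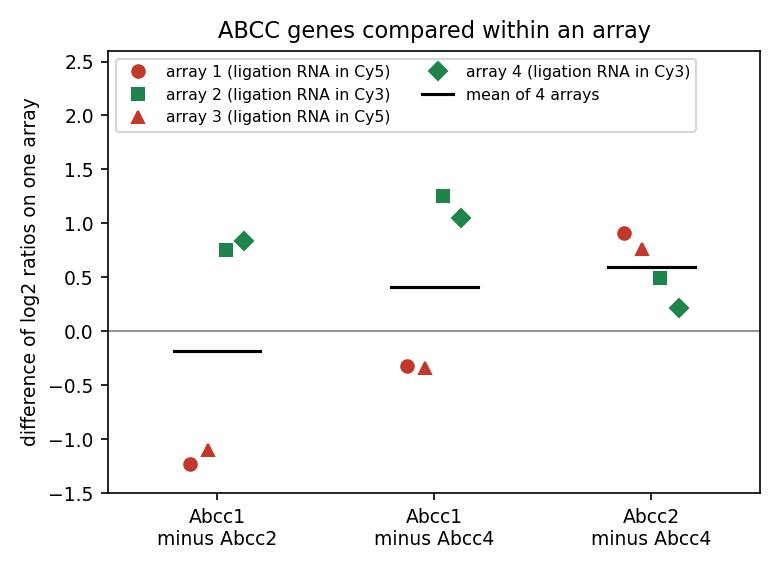
Difference between the log2 ratios of 2 ABCC genes on the same array (vertical axis) for the 3 pairs, 1 point per array, red for ligation RNA in Cy5 and green for Cy3, with the mean as a bar. Abcc2 minus Abcc4 lies above 0 on all 4 arrays, from 0.21 to 0.91, while both pairs with Abcc1 change sign with the dye. Read as Cy5 over Cy3, the green points turn sign, so that Abcc2 minus Abcc4 has both signs (mean 0.24) and the pairs with Abcc1 have 1 sign each.

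Among the organelle transporters none was called. Abcd3, the peroxisomal importer of acyl-CoAs, stood at 0.65 on array 1, -1.02 on array 2, 0.43 on array 3 and -0.74 on array 4. The Cy5 arrays were high and the Cy3 arrays low, and the dye term of 0.71 was larger than that of 86.4% of named genes. The ligation term was -0.17 ± 0.08 (95% interval -0.34 to 0.0034; limma adjusted p = 0.141), so its interval just reached 0 and leaves a ratio of 0.788 possible.

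Abcb6, the porphyrin transporter, was measured by probes 55 and 1146. Probe 55 gave -0.07, -0.15, -0.08 and -0.20 on arrays 1 to 4, the only member probe below the median on all 4 arrays. Probe 1146 gave 0.62 and 0.59 on the Cy5 arrays and -0.76 and -0.54 (-0.545) on the Cy3 arrays. The dye terms of these probes were 0.05 (0.0511) and 0.63, and the cause of that gap was not tested. Their ligation terms, -0.13 and -0.02 (-0.0235), lay 0.10 apart. Averaged over both probes the gene was at -0.08 ± 0.07 (95% interval -0.23 to 0.08; limma adjusted p = 0.525).

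Abcb9, the lysosomal peptide carrier, was measured by probes 180 and 1165. Probe 180 gave -0.58, 0.41, -0.27 and 0.09 on arrays 1 to 4, and probe 1165 gave -0.61, 0.62, -0.72 and 0.46. Both were low on the Cy5 arrays and high on the Cy3 arrays, with dye terms of -0.34 and -0.60. Their ligation terms were -0.09 and -0.06, only 0.02 (0.0214) apart, and the gene mean was -0.08 ± 0.08 (95% interval -0.24 to 0.09; limma adjusted p = 0.556). With every probe fitted on its own over 1648 probes, Abcc2 (adjusted p = 0.0199) and Abcc4 (adjusted p = 0.014) were again the called members, 2 of 8 beside 27.9% of all probes.

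The order of the ligation terms from high to low was Abcc2, Abcc1, Abcb9, Abcb6, Abcd3 and Abcc4. The 95% intervals of each pair of neighbours in that order overlapped, whereas those of Abcc2 and Abcc4, at its ends, did not. Because the ends were picked by the same values, the gap between them is a description and not a test. Read as Cy5 over Cy3, the order changes, with Abcd3 (0.71) highest and Abcb9 (-0.47) lowest.

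In all 6 ABC genes the dye term exceeded the ligation term, so that the mean of the Cy5 arrays and the mean of the Cy3 arrays had opposite signs. The same held for 78.2% of the 958 named genes. The dye term also went with how far genes moved. Named genes were split by dye term into 4 bins of 239 or 240 genes. In the bin with the lowest dye terms (-0.89 to -0.31), which holds Abcb9, 2.08% were called and the SD of the ligation term was 0.08. The next bin, which holds Abcc1, had 21.8% called. The bin of Abcb6 and Abcc4 had 36% called, and the highest bin (0.52 to 0.96), with Abcc2 and Abcd3, had 48.8% called and an SD of 0.48. The 288 inferred control spots had a median dye term of -0.52, against 0.15 for the other probes. Their median absolute ligation term was 0.09, beside 0.11 for the other probes. With these spots kept in the fit, 239 features were called higher, against 141 without them, and 195 were lower either way. No intensity was used, so whether Abcb9 and Abcc1 gave enough signal to show a change was not tested.

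**Figure D3:**
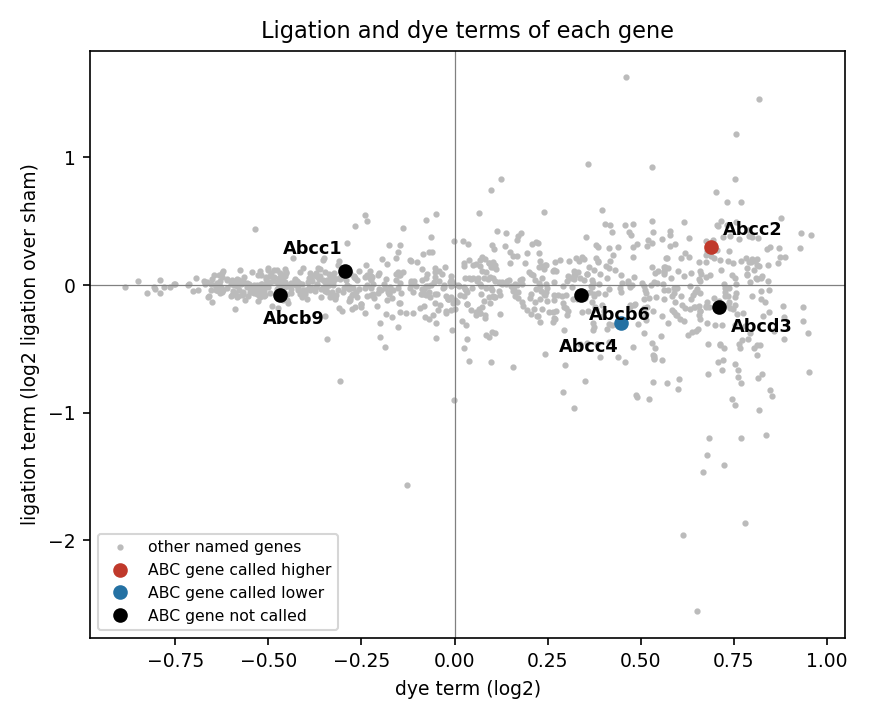
Ligation term (vertical axis) against dye term (horizontal axis), both in log2, for the 958 named genes in grey, with the ABC genes in red (called higher), blue (called lower) or black (not called). The spread of the ligation term widens from left to right, and the called genes Abcc2 and Abcc4 lie on the right.

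Read as Cy5 over Cy3, all 6 ABC genes would be called, beside 78.8% of all features (45.4% higher and 33.4% lower). Abcd3 would be at 0.71, Abcc2 at 0.69, Abcc4 at 0.45 and Abcb6 at 0.34, while Abcb9 would be at -0.47 and Abcc1 at -0.29. Abcc2 is higher under both readings and Abcc4 changes sign. Over the 340 genes with several probes, probes of a gene resembled each other more in the ligation term (intraclass correlation 0.59) than in the dye term (0.38), as a description across probes. In Abcb6 and Abcb9 the gap between probes was likewise smaller in the ligation term (0.10 and 0.02) than in the dye term (0.58 and 0.27). These values do not settle the direction.

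**Figure D4:**
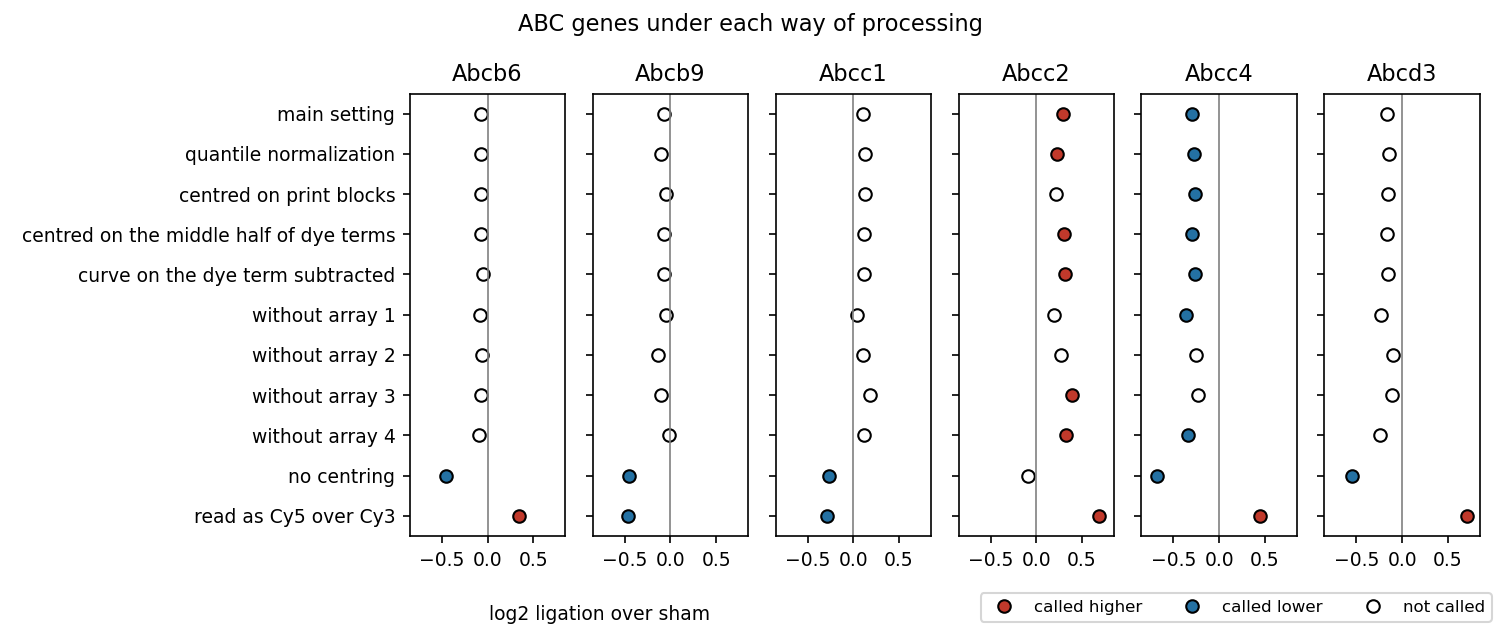
Log2 ligation over sham (horizontal axis) of each ABC gene under the main and 10 other ways of processing (rows), red where called higher, blue where called lower and white where not called. Abcc2 is white in 4 of the 10 other rows and Abcc4 in 2, every gene lies lower without centring, and Abcb6, Abcc1, Abcc4 and Abcd3 change sign when the table is read as Cy5 over Cy3.

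Genes of functions related to these transporters were counted from lists, with the same test. The list counts stand beside 12% of all features called higher and 16.6% called lower. Of the 27 called genes named from these and the cell type lists below, 13 would be called in the opposite direction if the table were Cy5 over Cy3. These are Slc10a1 (0.53), Slc22a8, Slco2b1, Rxra, Gstm2, Gsta2, Acsl1, Agxt, Hao2, Tnf, Ccl5, Cd53 and Ece1. A further 7 would lose their call, among them Nr1h4 (0.16) and Gstm5 (0.17), and 7 would keep it. None of 8 listed ABC proteins under other symbols (among them Cftr and Tap1) and none of 25 enzymes of glucuronidation and sulfation had a probe of its own single symbol. Uptake carriers for bile acids and organic ions had 7 measured genes, of which 3 fell and 4 were not called, with a median of -0.21. Slc10a1 (NTCP), which brings bile acids into the hepatocyte with sodium, was below the median on every array, at -0.12 and -0.33 on the Cy5 arrays and -1.26 and -1.33 on the Cy3 arrays. Its ligation term was -0.76 ± 0.07 (limma adjusted p = 6.56e-06). Slc22a8 was at -1.47 and Slco2b1 at -0.57. In this reading each of the 3 lay farther from the array median than any ABC member. That order fails if the table is read as Cy5 over Cy3, with Slc22a8 at 0.67, Slco2b1 at 0.54 and Slc10a1 at 0.53, below Abcd3 at 0.71 and Abcc2 at 0.69.

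Of 7 regulators and anchors of the export pumps, 2 were higher, 2 lower and 3 not called, with a median of 0.02 (0.0231). The bile acid receptor Nr1h4 (FXR), which binds the promoters of export pump genes together with Rxra, was at -0.28, -0.58, -0.68 and -1.01 on arrays 1 to 4, below the median on each, with a ligation term of -0.64 ± 0.09. Read as Cy5 over Cy3, Nr1h4 would be at 0.16 and not called. Rxra was at -0.50 ± 0.07. Nr0b2 (SHP), an FXR target, was at 1.63 and 1.13 on the Cy5 arrays and -0.13 and -0.03 (-0.034) on the Cy3 arrays, with a ligation term of 0.65 ± 0.09. Ezr, which codes for ezrin, a protein that ties membrane proteins to actin, was at 0.25 ± 0.08 (limma adjusted p = 0.0263). Without centring Ezr was at -0.13 and not called. Its call was also lost with print-block centring (0.17) and without array 1 (0.19), array 2 (0.27) or array 4 (0.22).

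For the glutathione conjugates that ABCC pumps carry, 12 genes of glutathione supply and conjugation were measured. Of these, 3 were higher, 3 lower and 6 not called, with a median of 0.02 (0.0226). The transferases Gstm2 (-0.82 ± 0.10) and Gsta2 (-0.46 ± 0.08) were lower, and Mgst1 (0.40 ± 0.08) and Gstm5 (0.39 ± 0.09) higher. Without centring 0 of the 12 were called higher and 9 lower, beside 82.2% of all features called lower. There Mgst1 was at 0.02 (0.0228) and Gstm5 at 0.0061, neither called. Sequence shared among glutathione transferases leaves single members uncertain.

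Of 7 peroxisomal genes beside Abcd3, 3 were lower and 4 not called, with a median of -0.04. The lower ones were enzymes, namely Acsl1, which activates fatty acids in several membranes (-1.96 ± 0.08), the glyoxylate transaminase Agxt (-0.46 ± 0.08) and the hydroxyacid oxidase Hao2 (-0.46 ± 0.08). Uox, also an enzyme, lay on the other side of 0, at 0.22 ± 0.09, and was not called (limma adjusted p = 0.0964). The assembly factors Pex2, Pex6 and Pex7 lay between -0.04 and 0.14 and were not called. Of 5 genes of haem and iron handling, the field of Abcb6, the iron carrier Tf was higher (0.37 ± 0.08, but -0.01 (-0.0138) and not called without centring) and 4 were not called. Of 3 lysosomal proteases, Ctsl was higher (0.37 ± 0.11), a call lost without centring (-0.0067), with print-block centring (0.33), without array 1 (0.23) and without array 4 (0.25).

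**Figure D5:**
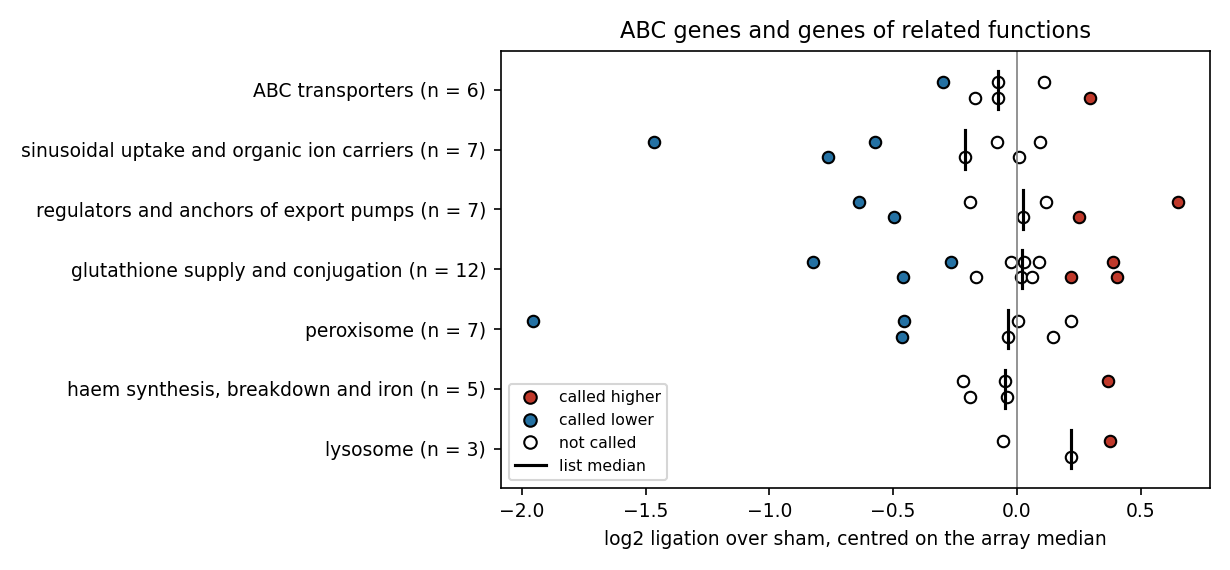
Log2 ligation over sham (horizontal axis) of the 6 ABC genes and of the genes of 6 related lists (rows), 1 point per gene, red where called higher, blue where called lower and white where not called, with a bar at the list median. The ABC genes lie between -0.30 and 0.30, while the carrier Slc22a8 lies at -1.47 and Acsl1, of the peroxisome list, at -1.96. Agxt and Hao2, the other called genes of that list, lie at -0.46. Read as Cy5 over Cy3, the ABC genes would span -0.47 to 0.71, with Slc22a8 at 0.67 and Acsl1 at 0.61 inside that span.

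The genes most alike to each member over the 4 centred arrays were found by the root mean square difference. For Abcc2 they were Ttr (0.09, with a ligation term of 0.26) and Ppp1ca (0.10, ligation term 0.24), and for Abcc4 they were Stip1 (0.08) and Hist1h2bg (0.09). For Abcd3 they were Igf1 (0.04) and Il2rb (0.06). For Abcb6 they were Nucb1 (0.03) and Pdap1 (0.05), for Abcb9 Parp2 (0.06) and Mark4 (0.06), and for Abcc1 Spink8 (0.07) and Vps33b (0.09). Likeness over 4 arrays depends on the dye term as well as the ligation term. The dye term was the larger in size in 78.2% of named genes.

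In whole liver RNA, fewer cells of a type and less RNA per cell cannot be told apart. The ratios hold no level, so the tissue could not be checked against its markers, only their shift. Over all features 12% were called higher and 16.6% lower. Of 8 hepatocyte markers, 5 were higher and 2 lower (median 0.23, range -0.90 to 0.38), led by Cyp7a1 (-0.90), Apoa1 (0.38), Cyp2e1 (-0.37) and Tf. The number of these markers called higher was 0 without centring, with 3 lower, beside 82.2% of all features lower. It was 2 without array 1, 3 without array 2 and 2 without array 4. In these settings 110, 112 and 96 of 1174 features were called higher. Of 5 cholangiocyte markers Anxa5 (0.95) was higher and none lower (range -0.05 to 0.95). Of 5 leukocyte and Kupffer cell markers, Tnf (-0.57), Ccl5 (-0.33) and Cd53 (-0.27) were lower (range -0.57 to 0.06). Among the 5 endothelial markers, Ece1 (-1.18) and Kdr (-0.33) fell (range -1.18 to 0.09), and of 7 stellate cell and matrix markers Timp1 was at 0.35 and Col1a1 at -0.23 (range -0.23 to 0.35). Calls were lost for Ccl5 without array 2 (-0.28), for Cd53 without arrays 2, 3 or 4 (-0.27, -0.20 and -0.26), for Kdr without arrays 1 or 2 (-0.26 and -0.20) and for Col1a1 without arrays 2, 3 or 4 (-0.24, -0.19 and -0.22). Without centring Apoa1 (-0.0039) and Timp1 (-0.03) were not called, and with the median over its 7 probes Cyp2e1 (-0.21) was not. Read as Cy5 over Cy3, Tnf (0.44), Ccl5 (0.37), Cd53 (0.27) and Ece1 (0.84) would be called higher. In that reading Cyp7a1, Cyp2e1, Kdr, Timp1 and Col1a1 would not be called, and Apoa1, Tf and Anxa5 would stay higher. The part of these cell types in the values of Abcc2 and Abcc4 was not tested.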

How the data were processed

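The series holds 4 two-colour arrays with 1936 probes and no missing value. The authors deposited 1 log2 ratio per probe and array. How slides were scanned, corrected for background and normalized is not stated by the labels used, and the base of the logarithm was taken as 2. Column medians were -1.26, 0.43, -0.96 and 0.26, and the 4 pairs of arrays with opposite dyes correlated at r = -0.45 to -0.28 across probes. No intensity was used, so precision rests on the number of arrays.

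Each column was centred on its median. Of the probes, 1432 had 1 symbol, 19 several and 485 none in the platform table, and 288 spots at positions unnamed in all 16 print blocks were left out as inferred controls. Probes of a symbol were averaged, which left 958 genes and 1174 features. limma 3.58.1 in R 4.3.3 fitted a ligation and a dye term, with moderated variances (10.4 prior and 2 residual degrees of freedom) and Benjamini-Hochberg adjustment, tested on simulated data. The named genes were all ABC members and the 2 most alike genes per member. From each list, up to 4 called genes with the largest absolute log2 value were named. The uncalled Pex genes and Uox were named after their values were seen. Members and lists were chosen with earlier results of these data known. Alternatives were other centrings, quantile normalization, the other reading of direction, no dye term, a robust prior, control positions kept, medians over probes, each array left out and, added after seeing the data, a loess curve on the dye term. No filter on dim probes was possible from ratios alone.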

Additional observations from a re-analysis of the deposited data

How the results depend on the processing

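Of the 6 genes, Abcc2 and Abcc4 kept direction and call with quantile normalization, the robust prior, control positions kept, medians over probes, centring on probes with middling dye terms and the added curve. Counts of called ABC genes were 5 without centring, 1 with print-block centring, 6 read as Cy5 over Cy3 and 0 with no dye term, and ranged from 0 to 2 when each array was left out (0 without array 2, where limma gave 2 at an unadjusted p under 0.05). Over all 1174 features, print-block centring called 319, and leaving out an array 253 to 308, with 263 without array 2. Counts of called ABC probes were 7, 1, 7 and 0 in the same order, and 0 to 2 over the left-out arrays. With no dye term, where the dye effect enters the spread between arrays by construction, limma called 0 of 1174 features (74 at an unadjusted p under 0.05, among them 0 of the 6 ABC genes), and Abcc2 at 0.30 and Abcc4 at -0.30 both had adjusted p = 0.998. Abcc2 was at 0.22 with print-block centring, and left-out arrays gave 0.19 to 0.40 for Abcc2 and -0.36 to -0.23 for Abcc4. Without centring Abcc2 was at -0.09 (-0.0864) and Abcc1 at -0.27. Read as Cy5 over Cy3, Abcc4 was at 0.45, Abcd3 at 0.71, Abcb6 at 0.34 (probe 55 at 0.05 (0.0511), probe 1146 at 0.63), Abcc1 at -0.29, and Abcc1 minus Abcc4 at -0.74. Abcb6 probe 1146, reported at -0.02 (-0.0235) and not called, was called lower at -0.41 (-0.405) without centring, and was at 0.02 (0.0161) with the added curve and from -0.08 (-0.0766) to 0.03 (0.0296) over the left-out arrays. All features called numbered 985 without centring (20 higher, 965 lower), 925 read as Cy5 over Cy3 and 0 with no dye term, against 336 (141 higher, 195 lower). With the 288 inferred control spots kept, 434 of 1462 features were called, 239 higher and 195 lower. The number called lower thus stayed the same and the number called higher rose. Which spots gained a call was not listed. Calls in the related and cell type lists together numbered 55, 56 and 0 in that order, against 32 of 69. Of the 27 called genes named from the lists, 7 lost their call without centring. Read as Cy5 over Cy3, 13 were called the opposite way, 7 lost their call and 7 kept it. Apart from the settings built to omit a term or an array, the cause of these changes was not tested. The ratio of each array already pairs both pools, and the series has 1 group of ratios, so no other paired analysis was run. A filter on dim probes was not run.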
